A study of Mus musculus with 14 samples.

Results

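The hearts taken 6 weeks after local irradiation of the chest are described here across all genes, in 8 of the 14 libraries of the series. Bulk RNA of cardiac tissue was sequenced, with 1 library per mouse, and the sources used here do not say which part of the heart was taken. All mice were male C57BL/6J of the WT genotype, aged 8 weeks when the irradiated mice received 30 Gy of 60Co γ-rays to the anterior chest with the rest of the body shielded. IRR_6w (n = 4) holds the irradiated hearts and Control_6w (n = 4) the unirradiated hearts of the same time point, and the 6 libraries of 1 day (3 Control_1d and 3 IRR_1d) were used to estimate the spread and to compare the time points. The question was which genes differ in the heart 6 weeks after the dose. Local irradiation of the chest also reaches the lung and other tissue in the field, and bulk heart RNA mixes cardiomyocytes with endothelial cells, fibroblasts and leukocytes, so that fewer cells of a type and less RNA per cell cannot be told apart.

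Ionising radiation breaks DNA and activates the transcription factor p53, whose targets stop the cell cycle or prepare the cell for death. Nucleic acids that leak into the cytosol are read by sensors that induce type I interferon, and interferon in turn induces, through STAT and IRF factors, antiviral effectors, GTPases and the genes of antigen presentation. In the irradiated heart the microvascular endothelium is known as a sensitive compartment, and monocyte entry and deposition of matrix by fibroblasts belong to the late response.

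Total counts of the 6-week libraries ran from 13336746 to 16837265, so that depth was similar in both groups. Defining heart muscle genes were present in every library, but their summed level (Myh6, Myl2, Tnnt2, Tnni3 and the like, in CPM, counts divided by the TMM-adjusted library size) was 4710 CPM in Control_6w replicate 3 and 8000 CPM in IRR_6w replicate 1, against 15124 to 43547 CPM in the other 6 libraries. Control_6w replicate 3 held 2994 CPM of 10 thymus markers and 2139 CPM of 10 T cell markers, where no other 6-week library passed 73.7 and 43.9 CPM. IRR_6w replicate 1 held 426 CPM of 10 lung epithelium markers, 2841 CPM of 5 atrial markers and 63076 CPM of 7 erythroid markers. Most of this lung sum came from Scgb1a1 (345 CPM) and Scgb3a2 (65.5 CPM). The other lung markers were at 7.54 CPM (Sftpa1) or less, with Sftpc at 0.288 CPM and Cldn18 at 0 CPM. The atrial markers summed to 334 and 191 CPM in Control_6w replicates 3 and 4 and to 9.88 to 22.04 CPM in the other 5 libraries. Among the heart muscle genes, Myl2 was at 5.69 CPM and Myl3 at 21.6 CPM in IRR_6w replicate 1, against at least 278.8 and 440.6 CPM elsewhere. Myh6 was at 3769 CPM in that library, within the 1206 to 12085 CPM of the others. Fat markers were high in Control_6w replicate 3 and IRR_6w replicate 1, with 1764 and 4823 CPM of 8 white fat markers against at most 144 CPM elsewhere. IRR_6w replicates 3 and 4 had 29.1 and 13.5% of the genes of 2 to 5 CPM at 0 counts, against 0.109 to 6.99% in the other 6 libraries. Results below are given for all libraries, and the larger shifts without Control_6w replicate 3 and IRR_6w replicate 1 (the pair) are given beside them. Whether the other tissues in these libraries account for the shifts was not tested.

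**Figure D1:**
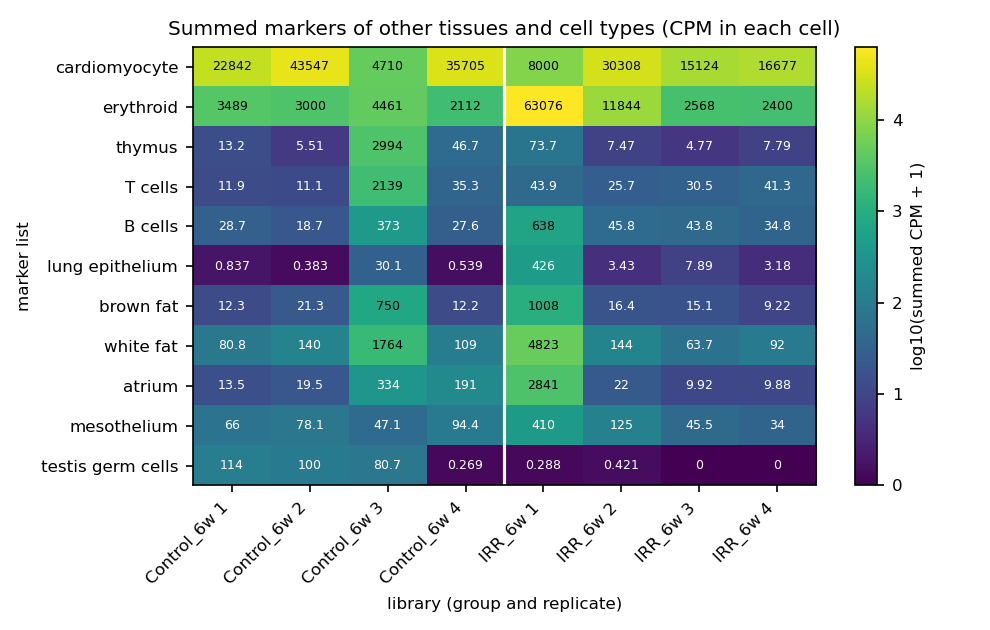
Summed level of the markers of each tissue or cell type (vertical axis, list; horizontal axis, library) in TMM-scaled CPM, printed in each cell and coloured by log10(summed CPM + 1). Thymus and T cell markers stand out in Control_6w replicate 3 (2994 and 2139 CPM), and lung, atrial and erythroid markers in IRR_6w replicate 1 (426, 2841 and 63076 CPM). Scgb1a1 made up 345 CPM of that lung sum.

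Most of the genes that passed the test at 6 weeks were higher in irradiated hearts. Of 16034 genes tested, 38 rose (0.237%) and 3 fell (0.0187%) by more than 2-fold in edgeR's quasi-likelihood test at a Benjamini-Hochberg adjusted p below 0.05, which is the definition of a DEG used below. The adjusted p of these 41 DEGs ran from 0.0188 to 0.04999, and their log2 fold changes from 1.29 to 5.05 for those that rose. In all 41 DEGs the 4 IRR_6w libraries lay wholly above or below the 4 Control_6w libraries. This is no separate support, since the DEGs were called on the same libraries. For Oaz3 it rests on 3 counts in Control_6w replicate 4 against 2 in IRR_6w replicate 2. Over all genes the groups lay wholly apart with IRR_6w higher in 654 genes (4.08%) and lower in 263 (1.64%). When each library was scaled to its total count and not by TMM, the median over all genes moved from -0.09 to 0.14 on the log2 scale, and separation was seen in 1061 and 79 genes, so that the share that was higher went from 71.3 to 93.1%.

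The calls depended on single libraries. No gene was called without Control_6w replicate 1, Control_6w replicate 2, IRR_6w replicate 3 or IRR_6w replicate 4. In these fits 867, 827, 741 and 736 genes passed the fold limit at an unadjusted p below 0.05. Without IRR_6w replicate 1, 98 were called (94 higher and 4 lower), and 36 without Control_6w replicate 3 (30 higher and 6 lower). Without Control_6w replicate 4 there were 24 (14 higher and 10 lower), and without IRR_6w replicate 2 there were 16, all higher. Irf7, Lgals3bp, C4b, Fn1, Fndc1, Ifi204, Siglec1, F830016B08Rik, Svep1 and Zfp365 were called in 10 of the 14 fits that each left out 1 library. Without Control_6w replicate 3 and IRR_6w replicate 1 together there were 133 DEGs among 15257 genes tested, 122 higher (0.800%) and 11 lower (0.0721%), and 38 of the 41 were among them. IRR_6w replicate 1 was the lowest of the irradiated hearts in 28 of the 38 genes that rose.

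**Figure D2:**
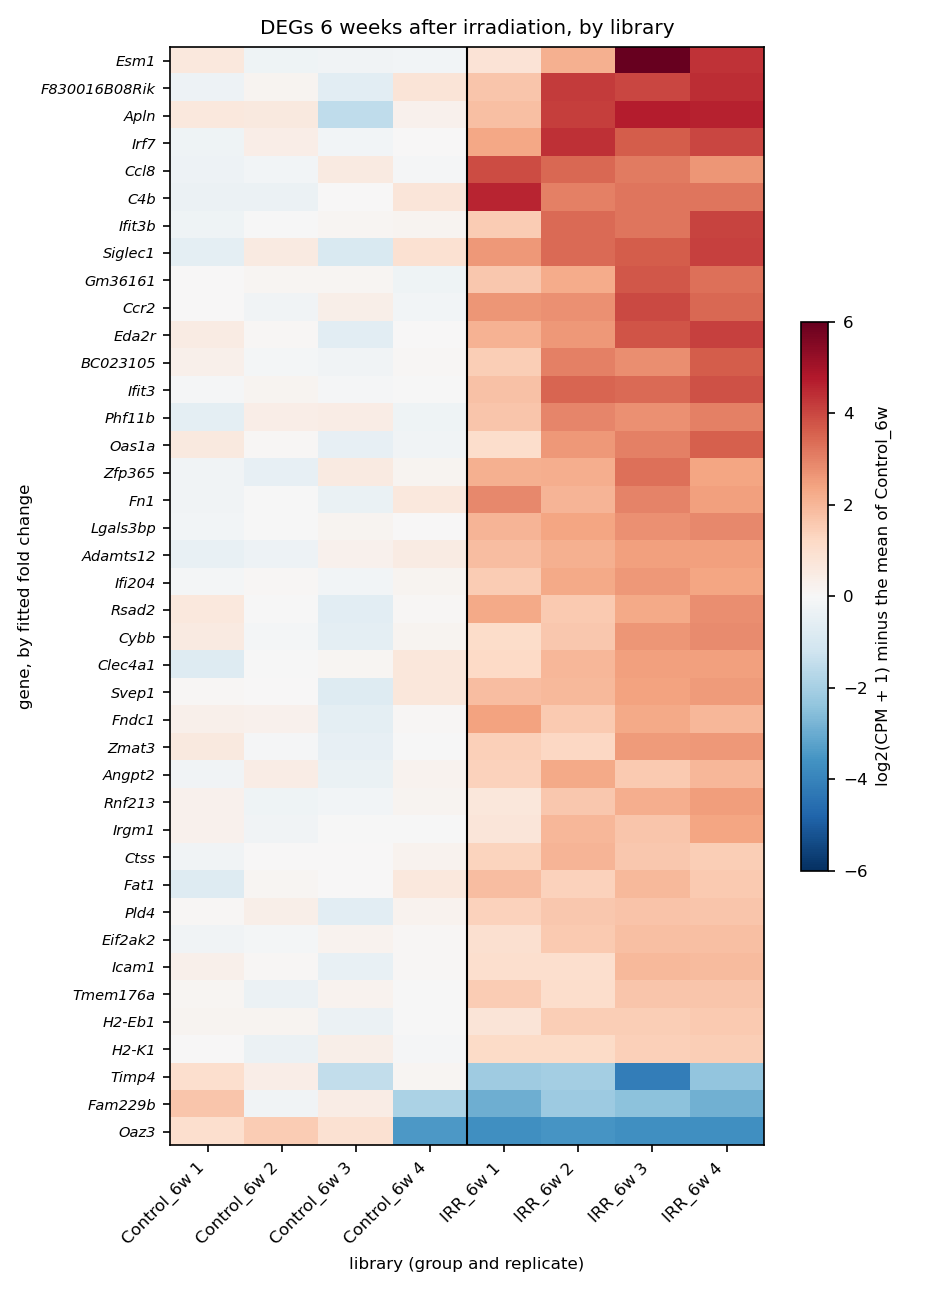
Of the 41 DEGs, 40 are shown (vertical axis, ordered by fitted fold change) in the 8 libraries (horizontal axis), as log2(CPM + 1) minus the mean of the 4 Control_6w libraries. The upper 37 are higher in every IRR_6w library, most weakly in replicate 1 for 27 of them, and Oaz3 is as low in Control_6w replicate 4 as in the irradiated hearts.

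The antiviral interferon-stimulated list held 5 DEGs, more than any other list. Irf7, the transcription factor that amplifies type I interferon, was at 8.75, 14.5, 9.29 and 10.8 CPM in the Control_6w hearts and at 56.7, 240.0, 142 and 185 CPM in the IRR_6w hearts. The lowest irradiated heart, replicate 1, was still above every control, and the log2 fold change was 3.85 ± 0.57 (SE; adjusted p = 0.0188). Ifit3, an RNA-binding antiviral effector, was at 12.3, 14.6, 12.5 and 13 CPM in controls and at 46.5, 159, 149 and 196 CPM after irradiation. Its controls were nearly equal, and it rose by a log2 fold change of 3.39 ± 0.60 (adjusted p = 0.0400). Oas1a, which makes the oligoadenylate messenger that activates RNase L, was at 6.85, 4.44, 2.68 and 3.503 CPM in controls and at 9.66, 30.6, 41.5 and 60.9 CPM in irradiated hearts. The rise of Oas1a was 3.03 ± 0.50, and replicate 1 lay close to the highest control. Rsad2 (viperin) was at 71.7, 44.9, 29.6 and 48.0 CPM in controls and at 229, 142, 229 and 322 CPM after irradiation, a rise of 2.25 ± 0.39 in which replicate 2 and not replicate 1 was the lowest.

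Of the 28 tested genes of the antiviral interferon-stimulated list, 5 rose (Ifit3, Ifit3b, Oas1a, Rsad2 and Rnf213), none fell, and 19 had groups that did not overlap. Their median log2 fold change was 2.26, against -0.09 over all tested genes, and all 28 had a positive value. Rnf213, a large ubiquitin ligase, was at 78.5 to 115 CPM in controls and 151 to 539 CPM in irradiated hearts. Ifit3b was at 2.97 to 4.38 and 12.9 to 79.6 CPM, but it is a near copy of Ifit3, so how reads were split between them is uncertain. Among members past no threshold, Oas3 had 4.25 (adjusted p = 0.105) and Mx1 3.83 (adjusted p = 0.258, or 5.64 with 0.0539 without the pair), both with 1 control (replicate 3) well above the other 3. Without Control_6w replicate 3 and IRR_6w replicate 1, 15 of the 28 rose, among them Oas3 (5.86), Usp18 (3.41) and Ifit1 (3.28).

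Sensors and interferon transcription factors had 2 DEGs among 15 tested members, Irf7 and Ifi204, and 8 with separate groups. Ifi204, a DNA-binding protein of the p200 family, was at 10.5, 12.2, 10.2 and 12.9 CPM in controls and at 34.3, 58.8, 74.5 and 63.2 CPM after irradiation. That is a rise of 2.33 ± 0.36 with little spread among controls. Dhx58, a regulator of RNA sensing, had 2.49 ± 0.56 with an adjusted p of 0.0901, and was called without the same pair of libraries (2.93). Irf1 was the one member with a negative value (-0.44). Eif2ak2 (PKR), the kinase that stops translation upon double-stranded RNA, was at 16.6, 17.98, 22.8 and 20.2 CPM in controls and at 38.3, 59.7, 68.7 and 70.9 CPM in irradiated hearts, and rose by 1.61 ± 0.31.

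Among 17 tested interferon-inducible GTPases, which attack the vacuoles of intracellular microbes, 2 rose and 6 had separate groups. F830016B08Rik, an immunity-related GTPase, was at 2.28, 3.60, 1.60 and 5.93 CPM in controls and at 11.8, 72.6, 64.4 and 85.3 CPM in irradiated hearts. The groups were apart and replicate 1 lay nearest to the controls, with a log2 fold change of 4.12 ± 0.59. Irgm1 was at 37.7, 26.8, 31.0 and 30.9 CPM and at 52.2, 128, 100.2 and 166 CPM, and rose by 1.82 ± 0.34. Without the pair 4 of the 17 were called, with Gbp6 (2.48) and Irgm2 (1.43) beside these 2. Also among the DEGs were the pseudogene BC023105 (3.42 ± 0.56), Phf11b (3.04 ± 0.54), the secreted glycoprotein gene Lgals3bp (2.57 ± 0.35) and the long non-coding RNA Gm36161 (3.54 ± 0.68), none of which was on a list.

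The interferon-stimulated response element is the site where IRF and ISGF3 factors bind, and its core was searched for on both strands as GAAA, then NN, then GAAA (TTTC, NN and TTTC on the other strand) in RefSeq promoters of GRCm38.p6, from 250 bases before to 50 after each start. Overlapping matches were each counted. It was found in 3.44% of 32851 promoters, in 10 of the 31 DEGs with a promoter (32.3%), in 11 of 21 antiviral genes, in 9 of 10 interferon-inducible GTPases, in 1 of 24 p53 targets and in 0 of 14 collagens. These shares describe letters in a window, not sites that are bound. The 10 DEGs with a match all rose, and the stretches upstream of the start of 6 of them are shown as examples. Cybb, Eif2ak2, Gm36161 and Ifit3b also had a match and are not printed. The stretches run 5′ to 3′ on the strand of the gene, with matches in capitals.
Ctss: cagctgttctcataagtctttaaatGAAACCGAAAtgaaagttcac
Oas1a: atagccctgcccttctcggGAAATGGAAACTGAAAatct
Irgm1: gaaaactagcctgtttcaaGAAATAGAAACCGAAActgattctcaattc
Rsad2: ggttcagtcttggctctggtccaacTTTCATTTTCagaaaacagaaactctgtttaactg
Ifit3: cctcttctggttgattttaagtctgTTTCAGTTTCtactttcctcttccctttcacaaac
Phf11b: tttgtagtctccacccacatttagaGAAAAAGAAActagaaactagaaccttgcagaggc
They lie at chr3:95526740-95526785 (+, Ctss), chr5:120907526-120907564 (-, Oas1a), chr11:48871421-48871469 (-, Irgm1), chr12:26456538-26456597 (-, Rsad2), chr19:34583382-34583441 (+, Ifit3) and chr14:59341346-59341405 (-, Phf11b). In Oas1a and Irgm1 a pair of matches overlap within 39 and 49 bases of the start. Ifit3b has the same 60 bases as Ifit3, at chr19:34607778-34607837.

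H2-K1 of MHC class I and H2-Eb1 of class II were the DEGs of antigen presentation. H2-K1, a classical MHC class I heavy chain, was at 277, 212, 345 and 259.7 CPM in controls and at 607, 604, 725 and 747 CPM in irradiated hearts. No irradiated heart overlapped a control, and the log2 fold change was 1.29 ± 0.24 (adjusted p = 0.0468). H2-D1, another heavy chain, had 292, 312, 329 and 307 CPM against 609, 706, 586.5 and 604 CPM, a separation of groups with a log2 fold change of 1.01 ± 0.25 that did not pass the test (adjusted p = 0.118). Over the 17 tested MHC class I genes the median was 0.86, with 1 DEG and 5 genes with separate groups. Without the pair 3 were called, H2-K1, H2-Q6 (1.59) and Tap1 (1.74), a subunit of the peptide transporter. The immunoproteasome subunits Psmb8, Psmb9 and Psmb10 had 0.86, -0.19 and 0.32, and 1.89, 0.62 and 0.51 without the pair.

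H2-Eb1, a beta chain of MHC class II, was at 86.6, 86.8, 59.8 and 75.2 CPM in controls and at 130.1, 213, 213 and 229.9 CPM after irradiation. Replicate 1 was well below the other irradiated hearts, and the rise was 1.35 ± 0.25. H2-Aa, the alpha chain, had 1.14 ± 0.25 (adjusted p = 0.0709) and was called without the pair of libraries (1.24, adjusted p = 0.0439), and 5 of the 10 tested class II genes had separate groups, with a median of 0.94. At 1 day H2-Eb1 had been at 53.2 ± 13.1 CPM (SD, n = 3) in Control_1d and 19.7 ± 4.04 CPM (SD, n = 3) in IRR_1d. The Y box of class II promoters, bound by NF-Y, was searched as CTGATTGG (CCAATCAG on the other strand) and was found in 4.1% of all promoters and in 3 of 7 class II promoters. H2-Eb1 and H2-Aa, the class II genes with the smallest p, carry it upstream of the start, and it is shown in capitals.
H2-Eb1: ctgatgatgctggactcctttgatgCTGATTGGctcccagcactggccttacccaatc
H2-Aa: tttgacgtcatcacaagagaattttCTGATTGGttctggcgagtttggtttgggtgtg
These stretches are chr17:34305780-34305837 (+) and chr17:34287842-34287899 (-).

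**Figure D3:**
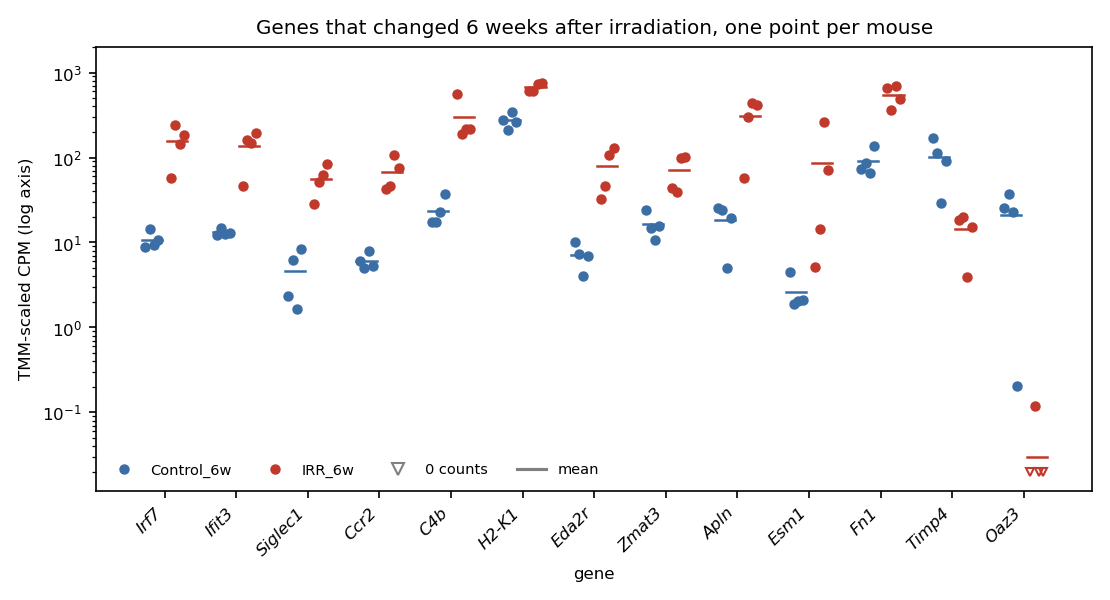
Levels of 13 genes (horizontal axis) in TMM-scaled CPM on a log axis, 1 point per mouse, blue for Control_6w and red for IRR_6w, with the mean as a bar and open triangles for 0 counts. Irf7 goes from 8.75 to 14.5 CPM in controls to 56.7 to 240.0 CPM in irradiated hearts, and Oaz3 is at 0.202 CPM in 1 control.

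Ccl8 and Ccr2, genes of monocyte recruitment, rose. Ccl8, a ligand that attracts monocytes, was at 1.29, 1.53, 3.13 and 1.68 CPM in controls and at 41.1, 29.5, 23.9 and 16.6 CPM in irradiated hearts. Its highest value was in IRR_6w replicate 1, where Irf7 was lowest among the irradiated hearts, and it rose by 3.85 ± 0.70. Ccr2, the receptor by which classical monocytes leave the marrow, was at 6.01, 4.97, 7.92 and 5.32 CPM in controls and at 43.1, 46.3, 108 and 75.6 CPM after irradiation, a log2 fold change of 3.49 ± 0.57. Of 20 chemokines tested, Ccl8 alone passed the test and 7 had separate groups. Ccl7 (3.03 ± 0.67, adjusted p = 0.0839) and Ccl2 (2.33, adjusted p = 0.196), the main ligands of Ccr2, had positive values, while Ccl24 and Cxcl2 had -1.61 and -1.30 (-2.72 and -1.92 without the pair). Without Control_6w replicate 3 and IRR_6w replicate 1, Ccl7 (3.02) and Cxcl10 (5.23), a chemokine induced by interferon, were also called.

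Siglec1 (CD169), a sialic acid receptor of macrophages that interferon induces, was at 2.36, 6.27, 1.65 and 8.42 CPM in controls and at 28.8, 51.4, 61.6 and 83.5 CPM in irradiated hearts. It rose by 3.59 ± 0.51 and was the one DEG among 10 markers of resident macrophages. The other resident markers did not move as a block, since Timd4 had -1.37, Cd163 -0.93, Lyve1 0.48, Folr2 0.65 and Mrc1 1.12 ± 0.24 (adjusted p = 0.0709), and of these only Mrc1 was called without the pair (1.07, adjusted p = 0.0410). Without the pair Timd4 had -2.33, Cd163 -1.53, Lyve1 0.04 and Folr2 0.22. All 16 general macrophage markers had positive values, with a median of 1.35, 7 with separate groups and no DEG. Adgre1, a surface marker of mouse macrophages, was at 40.6, 24.9, 12.5 and 34.9 CPM in controls and at 45.3, 86.3, 143 and 167 CPM in irradiated hearts, so that replicate 1 lay just above the highest control (1.97 ± 0.41, adjusted p = 0.0663). It was called without the pair of libraries (1.98). Monocyte markers had 1 DEG among 8, Ccr2, and a median of 1.70, or 3.07 without the pair. Ms4a4c was at 0, 0.918, 0.798 and 0.539 CPM in controls and at 4.26, 16.98, 33.6 and 42.4 CPM after irradiation, with an adjusted p of 0.210.

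Further DEGs are known from myeloid cells. They were grouped here after they were called, and of them only Ctss was on a list. Ctss, a lysosomal protease that trims the invariant chain of class II, was at 25.3 to 33.8 CPM in controls and at 76.1 to 123 CPM in irradiated hearts (1.66 ± 0.26), and was the one DEG of 13 cathepsins and lysosomal genes, 6 of which had separate groups. Cybb, the catalytic subunit of the phagocyte NADPH oxidase, was at 15.4 to 33.9 and 51.6 to 173 CPM (2.21 ± 0.39). Clec4a1 (2.20 ± 0.40), Pld4 (1.63 ± 0.31) and Tmem176a (1.53 ± 0.28) rose as well. Neutrophil markers summed to 8.26 to 32.2 CPM in controls and 13.7 to 28.1 CPM in irradiated hearts other than replicate 1 (86.6 CPM), which is within the range of the controls. B cell markers summed to 18.7 to 28.7 CPM and 34.8 to 45.8 CPM once Control_6w replicate 3 (373 CPM) and IRR_6w replicate 1 (638 CPM) are left out.

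C4b, the complement component cleaved by the C1 complex, was at 17.4, 17.3, 22.96 and 37.5 CPM in controls and at 563, 188, 217 and 219 CPM in irradiated hearts. Replicate 1, the library with 4823 CPM of white fat markers, stood far above the other irradiated hearts. The log2 fold change was 3.64 ± 0.57 with all libraries and 3.12 without the pair. All 15 complement genes had positive values (median 1.25), 1 was a DEG and 5 had separate groups. C1qb, a chain of the recognition protein C1q, had 1.33 ± 0.31 (adjusted p = 0.104) and was called without the pair (1.28), as was C3ar1 (1.57), the receptor of the C3a fragment.

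Among p53 targets Eda2r, Zfp365 and Zmat3 rose, while most members did not pass the test. Eda2r, a death receptor of the TNF receptor family, was at 10.05, 7.27, 3.99 and 7.01 CPM in controls and at 32.5, 46.7, 106 and 131 CPM in irradiated hearts. It was higher in each irradiated heart than in any control, by 3.48 ± 0.54. Zfp365, which protects fragile sites of the genome, was at 1.60, 1.15, 3.30 and 2.29 CPM and at 11.9, 12.7, 28.05 and 14.6 CPM, and rose by 3.0 ± 0.43. Zmat3, an RNA-binding p53 target, was at 24.1, 15.0, 10.8 and 15.6 CPM and at 44.3, 38.9, 97.9 and 100.5 CPM, and rose by 2.10 ± 0.35. Of the 31 targets 3 were DEGs, 10 had separate groups with IRR_6w higher and 1 with IRR_6w lower, and the median was 0.39. Without the pair the median was 1.45 and 6 were called, with Tnfrsf10b (2.33), Phlda3 (2.10) and Cdkn1a beside the 3 DEGs. Mdm2, the ubiquitin ligase of p53 itself, had 0.06 (adjusted p = 0.960), and Fas had -1.13 (adjusted p = 0.180) with 21.9 to 39.8 CPM in controls and 9.35 to 17.4 CPM in irradiated hearts. Gdf15, a stress cytokine, had 3.72 ± 0.79 (adjusted p = 0.0703) with separate groups.

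Cdkn1a (p21), the CDK inhibitor by which p53 arrests the cycle, was at 70.6, 72.9, 30.2 and 99.5 CPM in controls and at 144, 244, 284 and 258 CPM after irradiation. The groups did not overlap, but with all libraries the gene missed the threshold (1.77 ± 0.37, adjusted p = 0.0699), and it was called without Control_6w replicate 3 and IRR_6w replicate 1 (1.70 ± 0.31, adjusted p = 0.0269). At 1 day it had been at 37.6 ± 18.2 CPM in Control_1d and at 204 ± 43.7 CPM in IRR_1d (SD, n = 3 each). Cdkn1c (p57), an inhibitor of quiescent cells, went the other way, at 60.4, 33.2, 13.6 and 25.1 CPM in controls and at 9.38, 11.8, 9.86 and 4.13 CPM in irradiated hearts (-1.91 ± 0.41, adjusted p = 0.0709), and was called without the pair (-2.20). The 6 tested CDK inhibitors had a median of -0.77 and no DEG, and the median was -0.25 without the pair and 0.10 without Control_6w replicate 3 alone. Genes on the opposite strand share 30.7% of the exonic bases of Cdkn1c, and the strand setting of the counting is not stated in the sources used here.

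Genes of DNA replication and mitosis took their direction from 1 library. Mki67, a protein of dividing cells, was at 9.06, 8.72, 694 and 14.35 CPM in controls and at 23.9, 47.9, 16.7 and 24.5 CPM in irradiated hearts. Only Control_6w replicate 3, which also holds the thymus markers, was above the irradiated hearts. The 29 tested members had a median log2 fold change of -1.54 with all libraries, 1.19 without Control_6w replicate 3 and 1.42 without that library and IRR_6w replicate 1, and 28 of the 29 had a negative value with all libraries. None was a DEG with all libraries, and without the pair Top2a, the topoisomerase that untangles DNA for mitosis, was called higher (2.29 ± 0.45, adjusted p = 0.0353). Ccnd1, a D cyclin that acts in early cell cycle entry, was called in that comparison with 2.32 ± 0.24 (adjusted p = 0.00216), and was chosen after its value was seen.

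**Figure D4:**
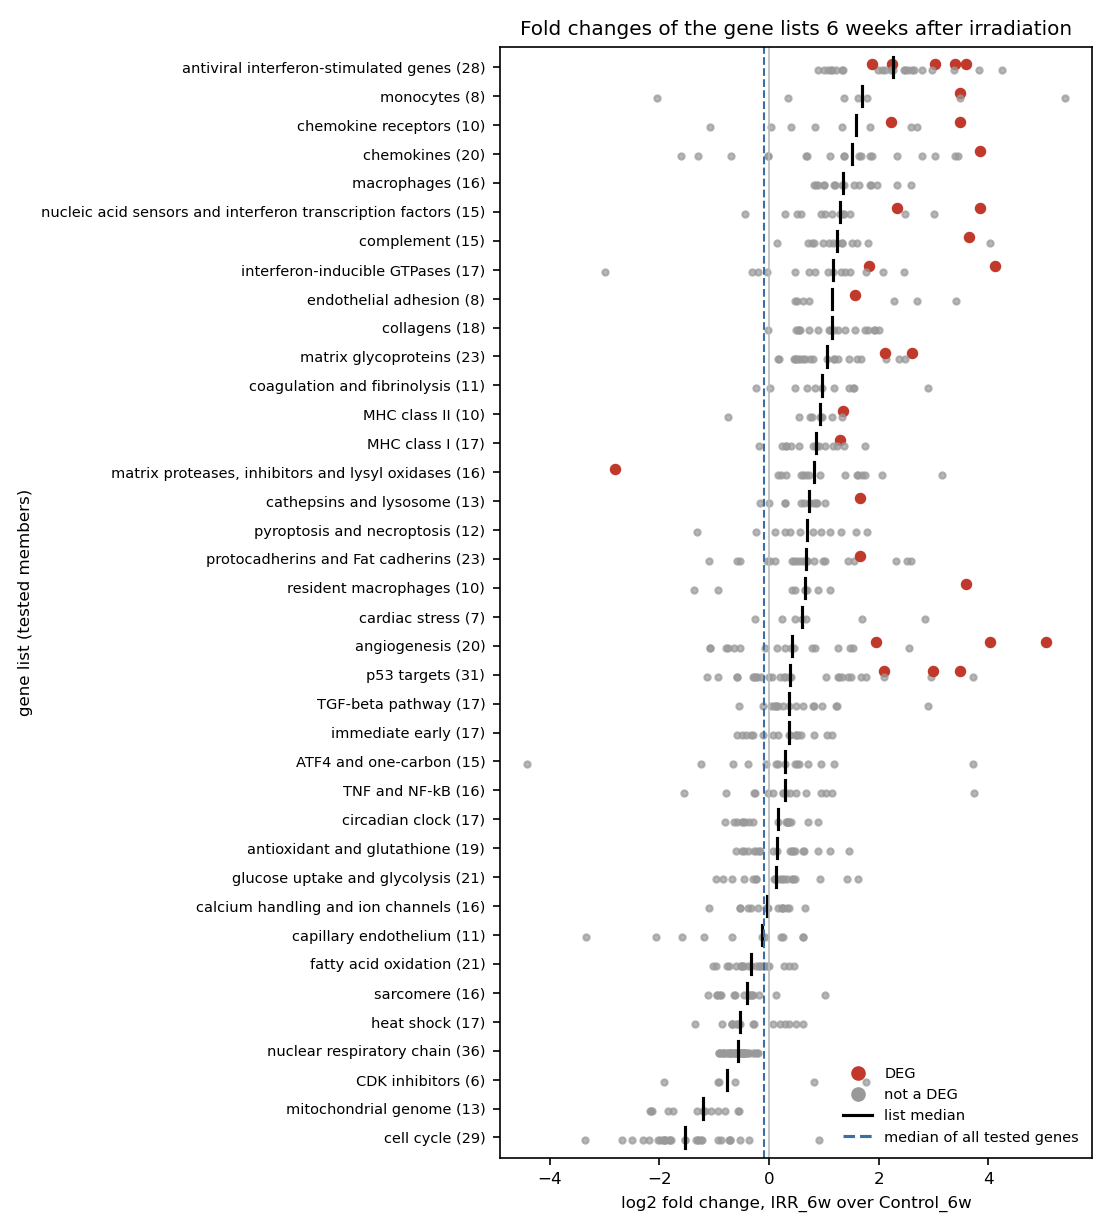
Log2 fold change of IRR_6w over Control_6w (horizontal axis) for every tested member of 38 gene lists (vertical axis, number tested in brackets), red for DEGs, with list medians as black bars and the median of all tested genes (-0.09) as a dashed line. With all libraries the antiviral list has the highest median (2.26), and all 36 nuclear respiratory chain genes lie below 0 (33 of 36 when scaled by library totals).

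In the angiogenesis list Apln, Esm1 and Angpt2, known from sprouting endothelium, rose, while no gene of the capillary list passed the test with all libraries. Apln, the ligand of the apelin receptor and a marker of endothelial tip cells, was at 25.4, 24.3, 4.96 and 19.4 CPM in controls and at 57.3, 303, 444 and 414 CPM in irradiated hearts. The rise was 4.04 ± 0.68, and replicate 1 was several times below the other irradiated hearts. Esm1, another tip cell gene, was at 4.49, 1.91, 2.05 and 2.09 CPM and at 5.18, 14.5, 259 and 70.7 CPM. It had the largest log2 fold change of the genes that rose (5.05 ± 0.97), but its irradiated hearts were widely spread, with replicate 1 close to the highest control. Angpt2, which loosens vessels as an antagonist of the Tie2 receptor, was at 5.18, 8.88, 4.5 and 7.28 CPM and at 17.7, 34.0, 20.8 and 27.7 CPM, and rose by 1.95 ± 0.35. These were the 3 DEGs among 20 genes of angiogenesis, of which 13 had positive and 7 negative values, with a median of 0.43. Without the pair 3 of the list were called higher and 2 lower, the latter being Flt1 and Tek.

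Icam1, by which leukocytes adhere to endothelium, was at 12.8 to 22.4 CPM in controls and at 36.4 to 71.6 CPM in irradiated hearts, and rose by 1.57 ± 0.29. The 8 tested adhesion genes had positive values, with a median of 1.15. Sele (E-selectin) was at 0.0761 to 1.38 and 4.998 to 9.86 CPM (3.40 ± 0.74, adjusted p = 0.0750). Aqp1, a water channel of capillaries, was at 1331, 1136, 334 and 757 CPM in controls and at 312, 267, 86.2 and 189 CPM in irradiated hearts. The lowest control, replicate 3, was barely above the highest irradiated heart (-2.06 ± 0.43, adjusted p = 0.0649), and without the pair Aqp1 was called lower (-2.57). Rgcc (-1.27) and the VEGF and angiopoietin receptors Flt1 (-1.29) and Tek (-1.09) were also called lower without the pair. The median of 11 capillary genes was -0.13 with all libraries, 0.03 when scaled by library totals and -0.69 without the pair.

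Fn1 and Fndc1 of the matrix glycoprotein list rose, while no collagen passed the test with all libraries. Svep1 and Adamts12 rose as well, but were on no list and were grouped here after they were called. Fn1 (fibronectin) was at 74.0, 86.5, 65.9 and 136 CPM in controls and at 656, 366, 690.0 and 489 CPM in irradiated hearts, a rise of 2.60 ± 0.39 in which every irradiated heart was more than 2-fold above the highest control. Fndc1, a protein with fibronectin domains, was at 21.8, 21.0, 11.2 and 18.5 CPM and at 98.6, 53.8, 90.3 and 71.8 CPM, and rose by 2.12 ± 0.30. Svep1, a large adhesion protein of the matrix, was at 24.1, 23.03, 12.8 and 36.3 CPM and at 85.1, 89.8, 124 and 135 CPM, and rose by 2.18 ± 0.33. Adamts12, a metalloprotease of the matrix, rose from 1.60 to 3.91 CPM to 11.8 to 18.4 CPM (2.57 ± 0.42). All 23 matrix glycoproteins had positive values, with a median of 1.06, 2 DEGs and 8 with separate groups. Without the pair Sparc (1.66), Tnc (4.54) and Fbn1 (1.40) were also called. Thbs1, a matricellular protein that activates latent TGF-beta, was at 110.4, 70.6, 31.5 and 71.3 CPM and at 159.6, 131, 556 and 620.5 CPM (2.37 ± 0.67, adjusted p = 0.187), with separate groups and a wide spread after irradiation.

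Of the 18 tested collagens, 8 had separate groups and the median was 1.15, with no DEG. Col3a1 was at 314, 263, 177 and 340.0 CPM in controls and at 647, 644, 998 and 968 CPM in irradiated hearts. Its groups were apart by a log2 fold change of 1.57 (adjusted p = 0.109). Without the pair 1 collagen was called, Col8a1 (1.96, adjusted p = 0.0334), whose groups overlapped with all libraries. Col5a2 (1.75 ± 0.36, adjusted p = 0.0610) and Col14a1 (1.80 ± 0.38, adjusted p = 0.0682) came nearest to the threshold. The 17 genes of the TGF-beta pathway had a median of 0.37 and no DEG (1 was called without the pair), with Tgfb1 at 0.13 and Tgfb2 at 1.24 ± 0.36 (adjusted p = 0.201).

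Fat1, an atypical cadherin, was at 16.9, 31.8, 30.0 and 46.6 CPM in controls and at 109, 78.4, 117 and 90.9 CPM in irradiated hearts. It rose by 1.66 ± 0.30 and was the one DEG among 23 protocadherins and Fat cadherins, but missed the threshold without the pair of libraries (1.59, adjusted p = 0.0540). Pcdhb9 was at 0, 0.383, 0.171 and 0.539 CPM and at 1.61, 1.38, 2.29 and 1.47 CPM, which are few counts, with an adjusted p of 0.501.

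The 3 genes that fell differed in how their controls were spread. Timp4, a tissue inhibitor of metalloproteases known for its abundance in heart, was at 168, 112, 29.2 and 91.0 CPM in controls and at 18.3, 19.9, 3.88 and 15.3 CPM in irradiated hearts. It fell by 2.8 ± 0.53 on the log2 scale (adjusted p = 0.0468), and by 3.24 without the pair. Timp4 was the only DEG in the list of 16 proteases, inhibitors and lysyl oxidases of the matrix, which does not hold Adamts12. Loxl2, a lysyl oxidase, was called higher without the pair (1.78, adjusted p = 0.0449). The median of that list was 0.83. Timp1, Timp2 and Timp3 were at 1.61, 0.68 and 0.16, or 1.03, 0.30 and -0.14 without the pair. At 1 day Timp4 had been at 49.9 ± 6.99 CPM in Control_1d and at 10.9 ± 4.91 CPM in IRR_1d (SD, n = 3 each).

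Oaz3, an antizyme of spermatids, was at 25.2, 36.7, 23.1 and 0.202 CPM in controls and at 0, 0.1204, 0 and 0 CPM in irradiated hearts, or 1220 against 2 counts. Control_6w replicate 4 thus had about the level of the irradiated hearts, and Control_1d had 0.0849 ± 0.0782 CPM (SD, n = 3). The pooled ratio of control over irradiated was 736.6 (exact 95% interval 203 to 6089, counting error only). That interval takes reads and not mice as the unit, so it does not cover the spread among mice. The 11 germ cell markers, Oaz3 included, summed to 114, 100.4 and 80.7 CPM in the same 3 controls and to at most 0.422 CPM in the other 5 libraries. Odf1, Oaz3, Tssk2, Mael and Akap4 made up most of the sums in these 3 controls. Prm2 and Tnp1, also on that list, had 0 counts in all 8 libraries, and Ldhc had at most 0.0575 CPM. Other genes share 55.8% of the exonic bases of Oaz3. Fam229b was at 74.2, 19.97, 31.7 and 5.39 CPM in controls and at 2.19, 4.28, 3.37 and 2.28 CPM in irradiated hearts, again with Control_6w replicate 4 nearest to them, and fell by 3.44 ± 0.65. Without Control_6w replicate 3 and IRR_6w replicate 1 Fam229b was not called, and Oaz3 did not pass the filter on low counts.

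Heart muscle and energy genes held no DEG at 6 weeks. Sarcomere genes had a median of -0.41 over 16 members, which was -0.11 by library totals, -0.75 without Control_6w replicate 3 and -0.21 without IRR_6w replicate 1, with Tnni3 at 461 to 3977 CPM in controls and 662 to 2561 CPM in irradiated hearts. These ranges overlap widely, and the lowest control was replicate 3, the library with the least heart muscle signal. Ankrd1, a stress-induced protein of the cardiomyocyte, was at 336, 529, 135 and 671 CPM and at 874, 1488, 1430.1 and 1597 CPM (1.69 ± 0.46, adjusted p = 0.165). Nppa, the atrial natriuretic peptide, was at 713 CPM in IRR_6w replicate 1, where the other atrial markers were also high, and at 8.03 to 18.2 CPM in the other 3 irradiated hearts, against 8.07 to 44.9 CPM in controls. Genes on the opposite strand share 61.5% of the exonic bases of Nppa.

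All 36 nuclear genes of the respiratory chain had negative values (33 of 36 when scaled by library totals). Their median was -0.56 (-0.30 by library totals), with no separate groups. All 13 protein-coding genes of the mitochondrial genome were negative too, with a median of -1.20 and 4 with separate groups. So were the 8 heart muscle markers, with a median of -0.74, and no cause was tested. Mitochondrial transcripts took 22.3 to 30.3% of the counts in controls and 10.4 to 22.2% in irradiated hearts. Calcium handling and ion channel genes had a median of -0.03 over 16. That median was 0.26 by library totals, -0.32 without Control_6w replicate 3 and 0.16 without IRR_6w replicate 1. Fatty acid oxidation had -0.32 over 21 genes, 10 of them positive by library totals and 4 by TMM. Glucose uptake and glycolysis had 0.12 over 21, or 0.40 by library totals and -0.005 without Control_6w replicate 3. Slc2a1 (GLUT1), the glucose transporter of endothelium and stressed muscle, was at 12.8, 11.02, 10.1 and 11.7 CPM in controls and at 16.0, 18.7, 62.3 and 44.5 CPM in irradiated hearts (1.63 ± 0.39, adjusted p = 0.1098), and was called without the pair (1.82, adjusted p = 0.0449).

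The remaining lists held no DEG with all libraries. Heat shock genes had a median of -0.52 over 17 members, with separate lower groups for Hspa8, Dnaja1, Hspd1 and Hspe1. TNF and NF-kB genes had 0.29 over 16, pyroptosis and necroptosis genes 0.69 over 12, coagulation and fibrinolysis genes 0.97 over 11 (1 was called without the pair), antioxidant genes 0.15 over 19, clock genes 0.17 over 17, immediate early genes 0.36 over 17 and ATF4 targets 0.29 over 15. Without the pair the clock and antioxidant medians turned to -0.34 and -0.01, the immediate early median went to 0.04 and that of ATF4 targets to 0.78. Cmpk2, a mitochondrial nucleotide kinase induced by interferon, is on the antiviral list and overlapped between the groups (15.7 to 44.5 and 18.2 to 114 CPM). Its log2 fold change was 1.33 ± 0.49 (adjusted p = 0.392), or 1.45 (adjusted p = 0.0941) without the pair.

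**Figure D5:**
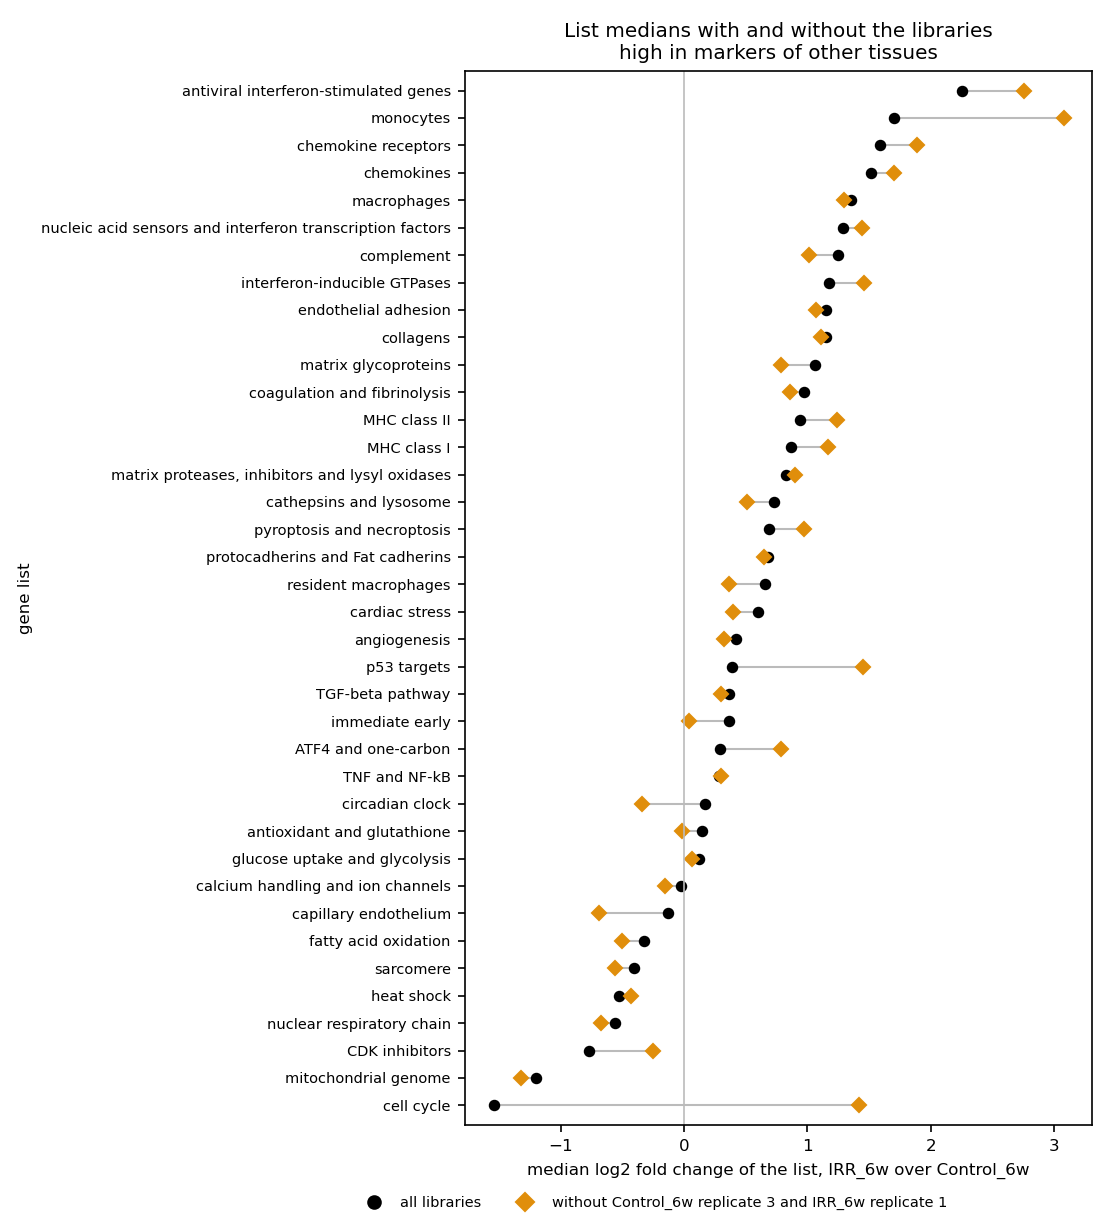
Median log2 fold change of IRR_6w over Control_6w (horizontal axis) for 38 gene lists (vertical axis) with all libraries (black circles) and without Control_6w replicate 3 and IRR_6w replicate 1 (orange diamonds). The cell cycle list goes from -1.54 to 1.42, the antiviral list from 2.26 to 2.76, and the monocyte list from 1.70 to 3.07.

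The change in response to irradiation from 1 day to 6 weeks was also tested across all genes. In edgeR with all libraries 0 of 16034 genes (0%) passed, with 458 at an unadjusted p below 0.05 and the same fold limits, while 37 passed in DESeq2, 18 in limma with quality weights, 9 in edgeR without a filter and 14 without the pair. The smallest adjusted p among the named genes was that of H2-Eb1 (0.0673), with a change in log2 fold change of 2.79, followed by H2-Aa (0.0812), with 2.5. For Ccr2 the change was 4.48 (adjusted p = 0.343), with 12.5 ± 10.1 CPM in Control_1d and 6.29 ± 5.27 CPM in IRR_1d (SD, n = 3 each). Eda2r had been at 10.3 ± 6.90 CPM in Control_1d and 77.8 ± 19.8 CPM in IRR_1d, next to 7.08 ± 2.48 and 79.0 ± 46.9 CPM (SD, n = 4 each) at 6 weeks.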

How the data were processed

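Per the methods of the study, RNA was extracted with TRIzol and sequenced as paired-end reads. The authors checked the reads with FastQC 0.11.8, trimmed them with Trim Galore 0.6.1, aligned them with STAR 2.5.0a to the mm10 transcriptome and counted reads per gene with HTSeq. They deposited whole-number counts, not normalized, for 54532 genes. The strand setting and annotation release were not given in the sources used here.

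The counts were fitted by edgeR 4.0.16 under R 4.3.3 (filterByExpr, TMM, a model of the 4 groups over all 14 libraries, quasi-likelihood test). DEGs had to differ by more than 2-fold (ratio over 2 or under 0.5), with a p below 0.05 after Benjamini-Hochberg adjustment across every gene tested. The SE is the log2 fold change divided by the root of F. CPM values use TMM-adjusted library sizes. The replicates are separate mice. By counting alone a gene at 0 counts allows up to 3 counts.

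Genes named are the DEGs, the 2 members with the smallest p of each list, 8 genes followed by the study and tissue markers, beside list members given to describe a list. A few genes that this rule names, 1 DEG among them, are not reported here. Members and lists were chosen with earlier results of these data known. As alternatives, DESeq2 1.42.0 and limma 3.58.1 were run. Promoter letters were checked for orientation against transcripts (78 of 87 found). The scripts were tested on simulated data.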

Additional observations from a re-analysis of the deposited data

Results flagged for a closer look

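In groups of 4 mice, the gap of 1 library to the nearest of the other 3 was set against the group's range, with the 95% limit of Dixon's test. It passed that limit in 16 of 186 sets of values of single genes, where chance gives about 1 in 20, and in 17 of 36 sets of summed tissue markers. The marker sums of a library move together, and Control_6w replicate 3 and IRR_6w replicate 1 (12 of the 33 each) were already known for such markers, so these numbers do not count separate events.

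Among genes, Control_6w replicate 3 stood apart with Mki67 at 693.7 CPM (next control 14.35), Mcm7 at 82.14, Pycard at 45.46 and Slc7a11 at 45.46 CPM. IRR_6w replicate 1 was highest for C4b (563 CPM) and Nppa (713.1 CPM), and lowest for H2-Eb1 (130.1 CPM) and C1qb (98.59 CPM). IRR_6w replicate 2 was highest for the heart genes Tnni3 (2560.9 CPM), Ech1 (736.5 CPM) and Ndufv2 (443.7 CPM), and for Oaz3 (0.1204 CPM, where the other 3 had 0 counts). Zfp365 in IRR_6w replicate 3 (28.05 CPM), Cry1 in IRR_6w replicate 4 (38.28 CPM), Esm1 in Control_6w replicate 1 (4.491 CPM) and H2-Aa in Control_6w replicate 2 (117.7 CPM) were the highest of their groups.

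Among summed marker lists, Control_6w replicate 3 was highest for thymus (2994.4 CPM), T cells (2139.1), white fat (1763.9), brown fat (749.8), B cells (373.4), Schwann cells (83.68), NK cells (33.21) and lung epithelium (30.08 CPM). IRR_6w replicate 1 was highest for erythroid cells (63075.5 CPM), white fat (4823.4), atrium (2841.3), brown fat (1007.8), B cells (637.5), lung epithelium (426.2), Schwann cells (156.9) and thymus (73.68 CPM). Control_6w replicate 1 was highest for liver (13.85 CPM).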

How the results depend on the processing

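The DEGs reported here kept their direction in each alternative that tested them, but their number (41) did not hold. Oaz3 was too low to be tested on the 8 libraries, at 1 CPM in 4 libraries, or without Control_6w replicate 1, 2 or 3. The number was 328 with DESeq2 on all 14 libraries, 309 with DESeq2 on the 8 libraries of 6 weeks, 18 with limma-voom, 509 with limma's quality weights, 13 with edgeR on 8 libraries, 83 by library totals, 138 (102 higher and 36 lower) without a filter, 133 without the pair of Control_6w replicate 3 and IRR_6w replicate 1, 0 in edgeR without IRR_6w replicates 3 and 4 (641 at an unadjusted p), and 871 at an unadjusted p with all libraries. Leaving out 1 library gave 0 to 98, and 19 to 64 where that library was one of 1 day. With the replicate number as a replicate block it was 7. The labels do not say whether the replicate numbers pair mice. Correlations of same-numbered libraries ran from -0.40 to 0.51 and those of differently numbered ones from -0.26 to 0.41, too few to decide on pairing. DESeq2 size factors (45), at least 1 CPM in 4 libraries (41) and no fold limit (41) left the number of DEGs within 1.5 times. Genes whose response changed since 1 day (0) numbered 37 with DESeq2, 18 with quality weights, 9 without a filter, 14 without the pair, and 0 to 3 with 1 library left out. This change has no value on 8 libraries. Genes with separate groups (917) were 1131 to 2173 with 1 library left out, since fewer libraries overlap less often.

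Among uncalled genes named for the smallest p of their list or as followed by the study, 3 changed sign. List members given only to describe a list were outside this count. Of these, Psmb9, Timp3 and Top2a also changed sign without the pair. With quality weights Mki67 (-2.68 with edgeR and all libraries) had 1.02, Pycard (-1.31) 0.58 and Nppa (2.84) -0.56, and under the replicate block Mki67 had 0.50 and Nppa -0.28. Without the pair Mki67 had 1.47, Pycard 0.27 and Nppa -0.95. With 1 library left out Mki67 ran from -3.11 to 1.40 (positive without Control_6w replicate 3), Pycard from -1.65 to 0.28 (likewise) and Nppa from -1.16 to 3.26 (negative without IRR_6w replicate 1). The causes of these shifts were not tested. With 29.1% of genes of 2 to 5 CPM at 0 counts in IRR_6w replicate 3, low levels there are uncertain.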
